A study of Mus musculus with 24 samples.

Results

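The scavenger and efferocytosis receptors examined here were 10 genes, taken by gene symbol from the 56691 genes counted in each of the 2 expression tables. They comprise the scavenger receptors *Cd36*, *Msr1*, *Marco*, *Scarb1*, *Stab1* and *Cd163*, the receptor tyrosine kinases *Axl* and *Mertk*, and the secreted bridging proteins *Gas6* and *Mfge8*. Each symbol was found once in each table. Their RNA was measured by poly(A) RNA-seq in 24 libraries, in 8 groups of 3. Of these, 12 came from RAW264.7 cells, a mouse macrophage-like leukaemia line, and 12 from bone marrow-derived macrophages (BMDMs), grown from the marrow of 8-week-old male C57BL/6 mice. Within each cell type the groups were wild type and *Olfml3* knockout, each given PBS or 100 ng/mL lipopolysaccharide (LPS), the endotoxin of Gram-negative bacteria, for 4 h. The RAW264.7 knockouts of the study were single-cell clones made with CRISPR and lentiviral guides, so that a genotype effect and a property of 1 clone cannot be told apart, and the BMDM knockout came from mice lacking *Olfml3* in every tissue. The study calls its replicates biological, but nothing in the sources states which were separate clones, animals or cultures, and p-values measure only the spread between these libraries, which may be technical.

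Scavenger receptors bind modified lipoproteins, lipids, microbes and haemoglobin complexes on the macrophage surface and carry them into the cell. Efferocytosis is the uptake of dying cells, which expose phosphatidylserine on their outer membrane. Bridging proteins such as GAS6 and MFGE8 bind that lipid on one side and a phagocyte receptor on the other, GAS6 to the kinases AXL and MERTK and MFGE8 to integrins. CD36, a class B receptor for fatty acids and oxidised lipoprotein, SCARB1, a receptor for high-density lipoprotein, and STAB1, a receptor of tissue macrophages for phosphatidylserine and altered proteins, share part of this work. MSR1 and MARCO are class A scavenger receptors for acetylated lipoprotein and bacteria, and CD163 takes up haemoglobin bound to haptoglobin.

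The promoters of 3 members are shown because their RNA moved most with LPS, *Marco* upwards and *Cd163* downwards in BMDMs and *Axl* upwards in RAW264.7 cells. Each window holds 250 bases before and 50 from the RefSeq start site, and capitals mark the letters GAGGAA on either strand, a core bound by the myeloid factor PU.1. RefSeq windows on GRCm38.p6 were found for 8 of the 10 members. *Marco* lies at chr1:120504975-120505274 on the minus strand, *Axl* at chr7:25788684-25788983 on the minus strand and *Cd163* at chr6:124304401-124304700 on the plus strand, and the sequences read 5′ to 3′ along the gene.
Marco: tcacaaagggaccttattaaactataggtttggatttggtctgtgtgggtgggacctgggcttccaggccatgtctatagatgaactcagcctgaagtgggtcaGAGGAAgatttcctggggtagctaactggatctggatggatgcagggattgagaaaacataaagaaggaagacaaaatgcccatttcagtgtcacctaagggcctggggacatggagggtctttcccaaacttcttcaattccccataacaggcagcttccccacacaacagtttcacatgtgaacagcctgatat
Axl: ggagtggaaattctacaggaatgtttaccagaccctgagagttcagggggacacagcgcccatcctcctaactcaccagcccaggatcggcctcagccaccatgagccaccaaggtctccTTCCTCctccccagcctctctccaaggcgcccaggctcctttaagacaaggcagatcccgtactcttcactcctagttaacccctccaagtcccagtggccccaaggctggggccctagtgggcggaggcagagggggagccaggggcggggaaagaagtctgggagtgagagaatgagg
Cd163: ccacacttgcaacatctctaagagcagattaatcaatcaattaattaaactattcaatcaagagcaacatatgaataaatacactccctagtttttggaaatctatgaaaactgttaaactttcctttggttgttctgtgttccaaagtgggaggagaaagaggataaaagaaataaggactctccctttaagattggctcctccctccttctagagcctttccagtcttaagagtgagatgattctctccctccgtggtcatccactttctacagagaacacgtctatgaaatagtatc
One GAGGAA lay in the *Marco* window from base -146 to -141, and one on the opposite strand of the *Axl* window from -130 to -125, counted from the start site, and the *Cd163* window held none. The letters also occurred once each in the windows of *Stab1* and *Mfge8* and not in those of *Cd36*, *Mertk* and *Gas6*. Among all 32851 promoter windows of this length 28.3% held GAGGAA. No member window held TGANTCA, the AP-1 motif found in 7.81% of all windows, or TATAAA, found in 13.6%. Both strands were searched, no matches overlapped, and a match is a run of letters, not a bound site.

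Libraries held 11638273 to 16478616 counts in RAW264.7 and 17121240 to 22873094 in BMDMs. All 7 macrophage markers (*Adgre1*, *Csf1r*, *Itgam*, *Cd68*, *Lyz2*, *Fcgr1* and *Spi1*) exceeded 1 FPKM in every library, FPKM being fragments per kilobase of transcript, scaled to the library total. The genotype tag contradicts the title in 12 of the 24 libraries, and titles were used. In BMDMs *Olfml3* itself lay at 0.24 to 0.65 FPKM in wild type and at 0 to 0.03 in the knockout. In RAW264.7 it went against the labels, with 0.13 to 0.29 FPKM in wild type, 0.65 to 1.19 in the libraries labelled knockout with PBS and 18.3 to 18.9 in those labelled knockout with LPS. These libraries are therefore called labelled knockout throughout. Replicate 1 of the libraries labelled knockout with PBS stood apart, with a mean correlation across genes of 0.964 with its own group and 0.973 with wild type under PBS.

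Tests used limma on values of log2(FPKM + 0.1), fitted once per cell type to its 12 libraries, and a gene was called where the Benjamini-Hochberg adjusted p over all genes was under 0.05 and the fold change at least 1.5. Fold changes on this scale understate those of genes with low FPKM. The scale rests on each library's total count. On it the median of all genes with a mean of at least 1 FPKM shifted with LPS by -0.21 (log2) in wild-type and -0.23 in labelled-knockout RAW264.7 cells, and by -0.73 and -0.62 in wild-type and knockout BMDMs, and with the knockout by 0.14 in LPS-treated BMDMs. Changes are therefore also given under median-ratio scaling and as an edgeR test of the counts with TMM scaling, in which these medians lay within 0.05 of 0. Scaled to TPM, the median moved with the knockout label by 0.20 under PBS and 0.21 under LPS in RAW264.7.

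In RAW264.7 cells 5 of the 10 members reached 1 FPKM in some library. In wild type with PBS the levels per kilobase were 26.7 ± 1.43 FPKM for *Mfge8*, 20.9 ± 0.946 for *Scarb1*, 20.3 ± 0.780 for *Cd36*, 18.1 ± 0.327 for *Msr1* and 0.760 ± 0.231 for *Axl* (SD, n = 3), of which *Scarb1* and *Cd36* overlapped. *Mertk* had 0 counts in all 12 libraries, which allows at most 0.042 to 0.0594 FPKM in a library (3 counts). *Marco* and *Cd163* had 1 count each over all 12 libraries, *Stab1* stayed at or under 0.07 FPKM and *Gas6* at or under 0.73. *Mertk* could not be tested, and no fold is given for *Marco*, *Cd163* and *Stab1*, of which none was called.

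With the knockout label, 5 members of the line were called under PBS, 1 higher and 4 lower, where 4.79% of all 26740 genes tested were called higher and 3.77% lower. These shares rested on single libraries, at 12.6% and 8% without labelled-knockout PBS replicate 1 and, with both directions summed, at 4.85% to 5.48% without any 1 of the other 5 PBS libraries. Under LPS 4 were called, 1 higher and 3 lower, against 9.73% and 7.6% of all genes. A filter at 1 FPKM in at least 3 libraries kept 12290 genes, *Gas6* not among them. Of these 1428 were called higher and 967 lower under PBS, and 2028 and 1789 under LPS. Scaled to TPM, the shares higher and lower were 7.09% and 2.69% with PBS and 14% and 4.49% with LPS. In the LPS comparisons 5 members were called in wild type, 2 higher and 3 lower (5.8% and 12.5% of all genes), and 4 in the libraries labelled knockout, 2 in each direction (7.45% and 14.6%). With median-ratio or TMM scaling the split in wild type became 3 higher and 2 lower. On FPKM 1552 of the 26740 genes were higher and 3347 lower in wild type, and 1993 and 3906 in the labelled knockout. Median-ratio scaling, with the same test and genes, gave 2106 and 2144, and 2824 and 2672. With edgeR and TMM, which tested 13639 genes after a count filter, the counts were 1994 and 2258, and 2406 and 2769. Of the 12290 genes kept above, 1231 were higher on FPKM and 2931 lower in wild type, and 1490 and 3351 in the labelled knockout. These are levels of RNA in bulk cells, in which fewer cells of a kind and less RNA per cell cannot be told apart. The summed level of the macrophage markers moved with the label too, from 2975 to 3116 FPKM in the 6 wild-type libraries to 1037 to 1436 in the 6 labelled knockout. *Lyz2* had the widest range in that sum, 259 to 2264 FPKM over the 12 libraries. *Cd68* means were 578 in wild type against 454 FPKM with PBS and 457 against 332 with LPS. A dendritic cell list, led by *Siglech*, lay at 0.83 to 1.36 FPKM in wild type against 8.67 to 10.1 (PBS) and 2.89 to 2.98 (LPS) in those labelled knockout, with *Flt3* at no more than 0.02. Their part in the values below was not tested.

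*Cd36* was the member that rose with the label. Its wild-type libraries with PBS read 19.8, 21.2 and 19.9 FPKM and those labelled knockout 87.0, 93.7 and 95.5, and with LPS they read 31.8, 28.0 and 27.2 against 86.5, 87.0 and 88.7. The label groups did not overlap under either treatment. The difference was 2.18 ± 0.08 (log2, SE; adjusted p = 3.54e-07) with PBS and 1.59 ± 0.08 (adjusted p = 2.44e-06) with LPS, and all alternatives run called both. LPS moved wild type by 0.51 (adjusted p = 0.00107), short of the fold of 1.5, but 0.75 under median-ratio scaling and 0.74 with edgeR passed it. In the labelled knockout the LPS value was -0.07 (adjusted p = 0.57), which turned to 0.19 and 0.16 under these 2 scalings.

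*Msr1* was lower with the label under PBS and rose with LPS. It read 18.5, 18.0 and 17.9 FPKM in wild type with PBS, 9.80, 9.65 and 10.8 in the labelled knockout, 51.8, 49.9 and 51.1 in wild type with LPS and 38.4, 39.7 and 39.2 in the labelled knockout with LPS. No group overlapped another. The label difference was -0.85 ± 0.07 with PBS (adjusted p = 5.38e-05), and -0.38 ± 0.07 under LPS (adjusted p = 0.00438) was short of the fold of 1.5. LPS raised it by 1.48 in wild type (adjusted p = 2.25e-07) and by 1.95 in the labelled knockout (adjusted p = 2.54e-08). Under median-ratio scaling the rises were 1.72 and 2.21, both called.

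*Scarb1*, the receptor for high-density lipoprotein, fell with LPS. It read 20.2, 20.6 and 22.0 FPKM in wild type and 19.0, 19.3 and 19.1 in the labelled knockout with PBS, and 6.66, 6.56 and 6.34 against 4.82, 5.22 and 4.36 with LPS. The groups followed each other in this order without overlap. LPS changed it by -1.67 ± 0.08 in wild type (adjusted p = 3.03e-07) and by -1.98 ± 0.08 in the labelled knockout (adjusted p = 6.92e-08), while the label differences of -0.13 (adjusted p = 0.337) and -0.44 (adjusted p = 0.00485) were not called. Under median-ratio scaling the LPS changes were -1.43 and -1.71, both called.

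*Axl*, the GAS6 receptor, had the largest LPS response of the members in the line. It went from 1.00, 0.74 and 0.54 FPKM to 14.3, 14.6 and 13.2 in wild type, and from 0.31, 0.27 and 0.18 to 9.42, 9.50 and 8.60 in the labelled knockout. The rise was 4.07 ± 0.20 (adjusted p = 2.89e-07) and 4.73 ± 0.20 (adjusted p = 7.32e-08). Under median-ratio scaling it was 4.29 and 4.95, both called. All labelled-knockout libraries lay below all wild-type libraries under each treatment. The label difference was -1.27 ± 0.20 with PBS (adjusted p = 0.00309), where it was no longer called with a pseudocount of 1 FPKM (-0.48) or in a fit of the 2 groups alone (adjusted p = 0.0645). With LPS it was -0.61 ± 0.20 (adjusted p = 0.0484), and leaving out any 1 of the 6 LPS libraries ended the call (-0.56 to -0.65, adjusted p = 0.0884 to 0.127). The call was also lost when scaled to TPM (-0.37, adjusted p = 0.173), with pseudocounts of 0.01 (adjusted p = 0.109) or 1 (-0.56) and with no filter on low FPKM.

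The 2 bridging proteins among the members were lower in the libraries labelled knockout. Of 14 other receptors and bridging proteins for dying cells tested, 1 was called higher and 3 lower under each treatment. The higher one was *Pros1*, at 4.86 against 2.17 FPKM in wild type with PBS (1.12, adjusted p = 0.00126). With LPS it was at 3.31 against 1.31 (1.26, adjusted p = 0.000404). *Mfge8* read 26.4, 28.2 and 25.4 FPKM in wild type with PBS and 11.2, 9.05 and 8.29 in the labelled knockout, and with LPS 17.7, 16.3 and 16.6 against 3.88, 5.25 and 4.49. The label difference was -1.49 ± 0.13 with PBS (adjusted p = 0.000112) and -1.88 ± 0.13 under LPS (adjusted p = 1.92e-05), again with no overlap. The LPS change of *Mfge8* was -1.05 in the labelled knockout (adjusted p = 0.000209), and its value of -0.66 in wild type (adjusted p = 0.0048) was called on FPKM but not under median-ratio scaling (-0.42) or with edgeR (-0.44). In the labelled knockout the LPS change of *Mfge8* stayed called under both, at -0.79 and -0.83. *Gas6* had 63 counts over the 3 wild-type libraries with PBS and 2 over those labelled knockout, a ratio of 34.6 with a 95% interval of 9.19 to 292 that covers counting error only. With LPS it had 21 against 3 counts, a ratio of 6.19 (1.85 to 32.4). *Gas6* was called lower with the label under both treatments (adjusted p = 0.000261 and 0.0141) and lower with LPS in wild type (adjusted p = 0.00623). Pseudocounts of 0.01 and 1 FPKM ended the latter 2 calls, DESeq2 (adjusted p = 0.0905) ended the LPS call, and without labelled-knockout LPS replicate 2 (-0.94, adjusted p = 0.0515) the label call under LPS was lost.

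**Figure D1:**
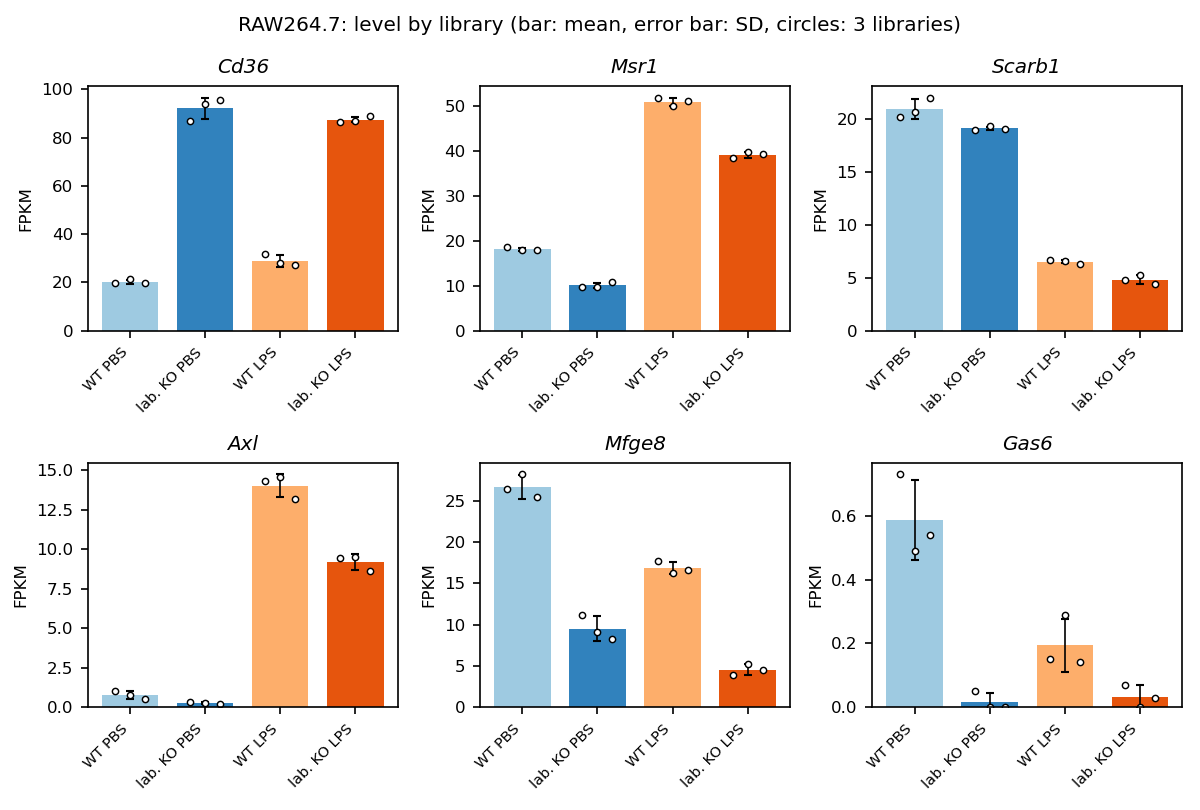
FPKM of 6 members in the 12 RAW264.7 libraries, with bars for group means, error bars for the SD and circles for the 3 libraries of a group (lab. KO, labelled knockout). *Cd36* lies between 86.5 and 95.5 FPKM in the 6 labelled-knockout libraries and between 19.8 and 31.8 in the 6 wild-type ones, and *Axl* rises with LPS in both.

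The difference between the label effects under LPS and PBS was tested as an interaction, which called no member in RAW264.7, where 0.905% of all genes were called positive and 1.04% negative. Without a threshold on fold, 2 members and 2.09% of all genes had an adjusted p under 0.05, the members being *Cd36* (-0.58 ± 0.11, adjusted p = 0.0336) and *Msr1* (0.47 ± 0.10, adjusted p = 0.0438). The unadjusted p was under 0.05 for 5 members and 10.2% of all genes, and DESeq2 called 1 member and edgeR with TMM 0. Without labelled-knockout PBS replicate 1, which stood apart, the same 5 members were called with the label under PBS and the same 4 with LPS in the labelled knockout, and *Cd36* (-0.62, adjusted p = 0.0076) and *Gas6* (1.63, adjusted p = 0.0445) were called for the interaction, where the shares of all genes called rose to 1.28% positive and 2.16% negative. *Cd36* was also called without wild-type PBS replicate 2 (-0.62), wild-type LPS replicate 2 (-0.61) or 3 (-0.63), or labelled-knockout LPS replicate 3 (-0.59).

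In BMDMs all 10 members reached 1 FPKM in some library. In wild type with PBS the order was *Cd36* (413 ± 8.18 FPKM), *Gas6* (247 ± 7.59), *Stab1* (93.8 ± 3.14), *Msr1* (92.0 ± 1.07), *Mertk* (44.7 ± 1.32), *Mfge8* (41.6 ± 0.535), *Axl* (28.2 ± 0.483), *Scarb1* (12.01 ± 0.415), *Cd163* (3.57 ± 0.319) and *Marco* (0.803 ± 0.197; all SD, n = 3). The neighbours *Stab1* and *Msr1* overlapped. The tables of the cell types were normalised separately, and levels are set side by side without a test. *Gas6*, *Mertk* and *Stab1*, at or near 0 in RAW264.7, were among the 5 highest members here, and *Scarb1* was the only member with a lower mean in BMDMs than in RAW264.7 in this group.

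Between knockout and wild-type BMDMs no member was called under PBS, where 0.901% of the 26973 genes tested were called higher and 0.916% lower, although the 3 knockout libraries lay outside the range of wild type for 8 of the 10 members, as they did for 20.5% of the genes tested and 40.8% of the 10555 at a mean of at least 1 FPKM. With limma 4 members had an adjusted p under 0.05 and 6 an unadjusted p under 0.05 (4.14% and 14.7% of all genes), all at folds under 1.5, while edgeR and DESeq2 each called 1, *Axl*. Under LPS 1 member was called, *Marco*, which was higher, against 3.23% of all genes higher and 1.53% lower. With LPS against PBS 7 members were called in wild type, 2 higher and 5 lower, where 7.94% of all genes were called higher and 32.5% lower, and 8 members in the knockout, 3 higher and 5 lower, against 8.02% and 30.9%. A filter at 1 FPKM in at least 3 libraries kept 11492 genes. Of these 1492 were called higher with LPS and 6487 lower in wild type, and 1538 and 5999 in the knockout. For the knockout effect they were 187 and 207 under PBS, and 734 and 303 under LPS. Relative to other genes the split of the members with LPS was different. With edgeR and TMM scaling 4 members were called higher and 3 lower in each genotype. Of the 14057 genes it tested after a count filter, 3523 were called higher and 4342 lower in wild type and 3362 and 4164 in the knockout. For the knockout under LPS these genes split into 632 higher and 647 lower, against 872 and 413 of the 26973 on FPKM. Median-ratio scaling, with the same test and genes as FPKM, gave 545 and 682. For LPS against PBS with median-ratio scaling, 4 members were called higher and 3 lower in wild type, and 3 and 3 in the knockout. Of all 26973 genes 3817 were called higher and 4662 lower in wild type, and 3532 and 4531 in the knockout. The summed macrophage markers moved with genotype and LPS, without overlap between groups. With PBS they read 14730 to 15151 FPKM in wild type and 16508 to 17700 in the knockout. With LPS they read 11926 to 12154 and 12529 to 12815. *Lyz2* ranged from 9890 to 15323 FPKM over the BMDM libraries. Among other cell types' markers, an endothelial list (*Cdh5*, *Kdr*, *Tek*, *Pecam1* and *Emcn*) moved with LPS, its sum going from 1.27 to 1.32 FPKM to between 5.09 and 6.03 in wild type and from 0.80 to 0.95 to between 3.83 and 4.26 in the knockout. Most of that sum was *Kdr* (0.52 to 5.34 FPKM), and the other 4 genes stayed at or under 0.45 FPKM. A B cell list went the other way, from 0.99 to 1.42 FPKM to between 0.23 and 0.35 in wild type and from 1.19 to 1.73 to between 0.28 and 0.51 in the knockout, with *Ms4a1* at no more than 0.02, as did a fibroblast list, from 1.08 to 1.41 to between 0.53 and 0.58 in wild type and from 1.22 to 1.44 to between 0.38 and 0.55 in the knockout. Their part was not tested.

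*Marco* was the member on which the genotypes differed most. With PBS wild-type libraries read 0.58, 0.95 and 0.88 FPKM and knockout libraries 0.85, 0.68 and 0.88, which overlap. With LPS wild type read 1.71, 2.79 and 2.58 and the knockout 8.91, 9.29 and 8.92, so that each knockout library exceeded each wild-type library. The knockout difference was 0.02 ± 0.20 with PBS (adjusted p = 1) and 1.92 ± 0.20 under LPS (adjusted p = 0.000223). LPS raised *Marco* by 1.44 ± 0.20 in wild type (adjusted p = 0.000146) and by 3.35 ± 0.20 in the knockout (adjusted p = 2.72e-07). Under median-ratio scaling these rises were 2.13 and 3.93. The interaction was 1.90 ± 0.29 (adjusted p = 0.00462), where 1.91% of all genes were called positive and 1.02% negative, and *Marco* was the only member called in it. All alternatives run kept these 4 calls.

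*Msr1*, the other class A receptor, rose with LPS in both genotypes. It read 91.0, 91.9 and 93.1 FPKM in wild type and 81.8, 83.5 and 82.8 in the knockout with PBS, and 185, 186 and 183 against 197, 197 and 198 with LPS. The rise was 1.00 ± 0.04 in wild type (adjusted p = 6.23e-09) and 1.25 ± 0.04 in the knockout (adjusted p = 1.56e-09). Under median-ratio scaling it was 1.75 and 1.89, both called. The genotype groups did not overlap under either treatment, but the differences of -0.15 with PBS (adjusted p = 0.0527) and 0.10 under LPS (adjusted p = 0.111) were not called, and the latter turned to -0.05 under median-ratio scaling.

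*Cd163* and *Stab1*, receptors of tissue macrophages, fell with LPS. *Cd163* went from 3.86, 3.23 and 3.63 FPKM to 0.10, 0.17 and 0.19 in wild type and from 4.44, 4.38 and 4.54 to 0.22, 0.18 and 0.30 in the knockout, a change of -3.87 ± 0.16 (adjusted p = 1.34e-08) and -3.79 ± 0.16 (adjusted p = 1.83e-08). Under median-ratio scaling these changes were -3.29 and -3.24, both called. No other member fell as far in these comparisons. *Stab1* went from 94.2, 90.5 and 96.7 FPKM to 27.2, 30.2 and 32.8 in wild type and from 123, 121 and 121 to 41.7, 41.2 and 45.2 in the knockout, by -1.64 ± 0.07 and -1.51 ± 0.07 (adjusted p = 1.99e-08 and 4.18e-08). These changes were smaller under the other scalings, at -0.90 and -0.88 (median-ratio) and -0.87 and -0.84 (edgeR), all called. Within each treatment all knockout libraries exceeded all wild-type libraries for *Stab1*, by 0.38 with PBS (adjusted p = 0.0166) and 0.51 under LPS (adjusted p = 0.00105), short of the fold of 1.5. *Stab1* overlaps *Nt5dc2* on the other strand (5.97 to 27.0 FPKM in BMDMs), and whether counting used strand is not stated, so reads of the 2 genes may not be told apart. In RAW264.7 *Nt5dc2* lay at 3.25 to 18.4 FPKM in libraries where *Stab1* stayed at or under 0.07.

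*Cd36* and *Scarb1*, both class B receptors, had lower FPKM with LPS. *Cd36* read 414, 405 and 421 FPKM in wild type and 327, 325 and 337 in the knockout with PBS, and 184, 181 and 185 against 173, 176 and 172 with LPS. Its LPS change of -1.17 ± 0.04 in wild type and -0.92 ± 0.04 in the knockout (adjusted p = 3.36e-09 and 2.06e-08) was called on FPKM, but -0.43 and -0.29 under median-ratio scaling and -0.40 and -0.25 with edgeR were not. The knockout libraries were below all wild-type libraries in each treatment, with differences of -0.33 ± 0.04 with PBS (adjusted p = 0.00126) and -0.08 ± 0.04 under LPS (adjusted p = 0.269), and neither was called. *Scarb1* read 12.1, 11.6 and 12.4 FPKM in wild type and 13.0, 13.4 and 13.1 in the knockout with PBS, and 5.08, 5.10 and 5.34 against 5.70, 5.62 and 5.94 with LPS. The knockout was above wild type in all libraries of each treatment, with differences of 0.13 and 0.15 that were not called (adjusted p = 0.2 and 0.0539). Its LPS change of -1.20 and -1.18 (adjusted p = 9.43e-09 and 1.22e-08) was -0.47 and -0.56 under median-ratio scaling, which was not called.

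The GAS6 receptors *Axl* and *Mertk* had LPS folds above the median of expressed genes in both genotypes. *Axl* read 28.4, 28.5 and 27.6 FPKM in wild type and 18.8, 18.9 and 18.8 in the knockout with PBS, and 40.6, 40.9 and 41.8 against 36.2, 34.9 and 35.8 with LPS. Knockout libraries lay below wild type in both treatments. The difference with PBS, -0.58 ± 0.04 (adjusted p = 2.35e-05), was just short of the fold of 1.5 and was called with median-ratio scaling (-0.61), with edgeR (-0.62) and without wild-type PBS replicate 3 (-0.59), and that with LPS, -0.20 ± 0.04 (adjusted p = 0.00552), was not called. LPS changed *Axl* by 0.54 ± 0.04 in wild type (adjusted p = 8.25e-07, not called) and 0.92 ± 0.04 in the knockout (adjusted p = 2.05e-08, called), and by 1.28 and 1.55 under median-ratio scaling, called in both. The interaction was 0.37 ± 0.06 (adjusted p = 0.0041), short of the fold of 1.5.

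*Mertk*, the other kinase, read 46.2, 44.0 and 43.9 FPKM in wild type and 43.4, 42.5 and 41.5 in the knockout with PBS, and 55.8, 61.5 and 63.4 against 41.1, 39.5 and 39.7 with LPS. The genotypes lay far apart only in the LPS-treated libraries. Under PBS they differed by -0.07 ± 0.06 (adjusted p = 0.601). Under LPS the difference of -0.58 ± 0.06 (adjusted p = 0.000137) was just short of the fold of 1.5. It was called with LPS under median-ratio scaling (-0.73) and with edgeR (-0.73), and also without wild-type LPS replicate 1 (-0.64) or knockout LPS replicate 1 (-0.60). The interaction of -0.51 ± 0.08 (adjusted p = 0.00547) was likewise called under median-ratio scaling (-0.62) and edgeR (-0.61). LPS changed *Mertk* by 0.43 in wild type (adjusted p = 8.58e-05) and by -0.08 in the knockout (adjusted p = 0.271), which became 1.17 and 0.55 under median-ratio scaling, so that the sign in the knockout flipped.

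Of the bridging proteins, *Gas6* fell with LPS in both genotypes, with an interaction of -0.03 ± 0.07 (adjusted p = 0.817). It read 251, 238 and 252 FPKM in wild type and 251, 254 and 250.03 in the knockout with PBS, and 92.2, 94.8 and 97.2 against 91.8, 92.6 and 98.5 with LPS. The genotypes overlapped in each treatment, with differences of 0.03 ± 0.05 and -0.01 ± 0.05 (adjusted p = 0.879 and 1). The LPS change was -1.38 ± 0.05 and -1.42 ± 0.05 (adjusted p = 3.76e-09 and 3.67e-09), and -0.64 and -0.78 under median-ratio scaling, still called, though DESeq2 (-0.58) and edgeR with median-ratio factors (-0.56) fell short of the fold of 1.5 in wild type. *Mfge8* read 42.1, 41.6 and 41.1 FPKM in wild type and 34.9, 35.4 and 34.1 in the knockout with PBS, and 31.5, 30.5 and 29.8 against 24.5, 25.5 and 25.3 with LPS. Within each treatment all knockout libraries lay below wild type, with differences of -0.26 ± 0.04 with PBS and -0.29 ± 0.04 with LPS (adjusted p = 0.00799 and 0.00134), short of the fold of 1.5. Its LPS values of -0.44 and -0.47 were not called and turned to 0.30 and 0.16 under median-ratio scaling.

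**Figure D2:**
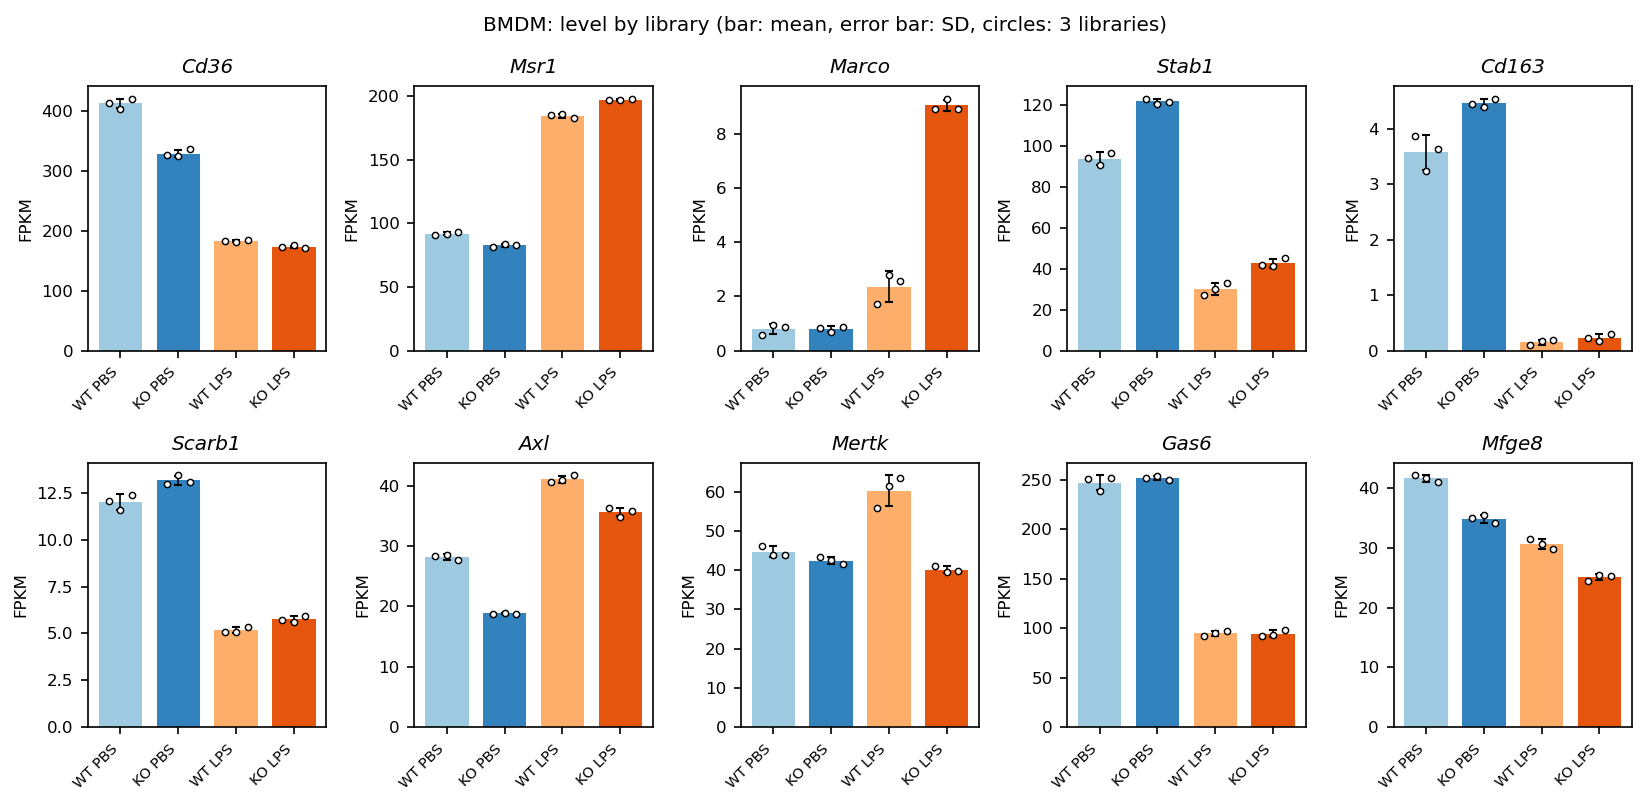
FPKM of the 10 members in the 12 BMDM libraries, with bars for group means, error bars for the SD and circles for the 3 libraries of a group. *Marco* lies at 8.91 to 9.29 FPKM in the knockout with LPS and at no more than 2.79 elsewhere, and *Cd163* at no more than 0.30 in the 6 LPS libraries.

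**Figure D3:**
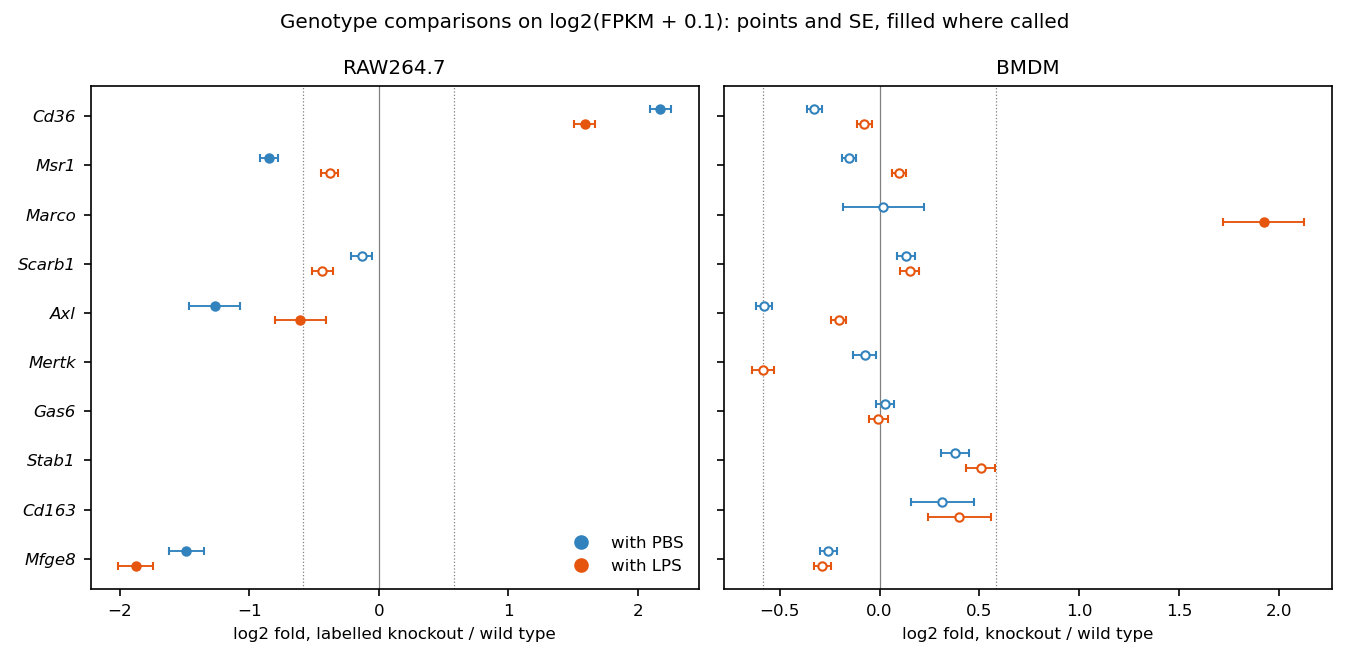
Log2 fold of labelled knockout or knockout over wild type for each member, with PBS (blue) and LPS (orange), bars for the SE, filled points where called and dotted lines at a fold of 1.5 (RAW264.7 members at or near the count floor are not drawn). *Cd36* is at 2.18 and 1.59 in RAW264.7 and at -0.33 and -0.08 in BMDMs, and *Marco* is the only filled point in BMDMs.

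**Figure D4:**
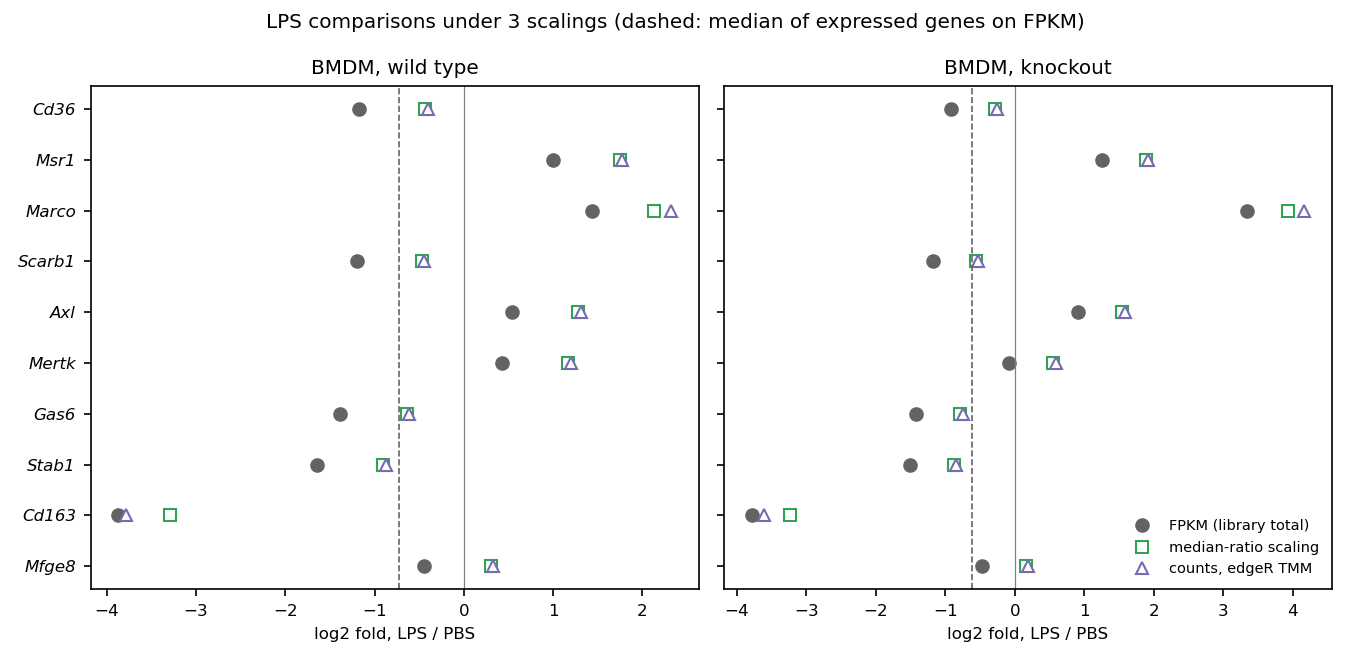
Log2 fold of LPS over PBS in BMDMs for each member on FPKM, under median-ratio scaling and by edgeR with TMM, with a dashed line at the median of expressed genes on FPKM (-0.73 in wild type, -0.62 in the knockout). *Mfge8* lies below 0 on FPKM and above 0 under the other scalings, as does *Mertk* in the knockout.

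Across the 74 other genes of the pathway, in 6 lists, 5 of the 68 tested in RAW264.7 were called higher with the knockout label and 12 lower with PBS and 6 and 11 with LPS, with median log2 folds of -0.12 and -0.14 against 0.02 and -0.02 over all expressed genes. Of all genes 4.79% were called higher and 3.77% lower with PBS, and 9.73% and 7.6% with LPS. Among 13 genes that metabolise engulfed cargo, 1 was higher and 4 lower with PBS and 3 and 4 with LPS. These included a fall of 3.36 on the log2 scale in *Plin2*, a lipid droplet coat protein (0.890 ± 0.0529 against 10.1 ± 0.289 FPKM with LPS; SD, n = 3; fell by 3.36, adjusted p = 1.94e-06) and a rise of 2.77 in *Ch25h*, a cholesterol hydroxylase (1.21 ± 0.0902 against 0.117 ± 0.126, adjusted p = 0.000602). With PBS *S1pr1*, a receptor for a lipid released by dying cells, was higher (10.5 ± 1.81 against 1.77 ± 0.112 FPKM, 2.49, adjusted p = 4.73e-06). The interaction called 3 positive and 5 negative, with *Ch25h* at 2.77 (adjusted p = 0.0199) and *S1pr1* at -2.03 (adjusted p = 0.000926) at the ends, the latter at -0.38 with edgeR. Of all genes 0.905% were called positive and 1.04% negative.

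In BMDMs 2 of 73 tested pathway genes were called higher in the knockout and 1 lower with PBS, the last being *Npc2*, a lysosomal cholesterol carrier (201 ± 3.00 against 307 ± 9.22 FPKM, -0.61, adjusted p = 7.23e-05). Of all genes 0.901% were called higher and 0.916% lower. With LPS 6 pathway genes were higher and 1 lower, or 4 and 3 with TMM scaling. On FPKM 3.23% of all genes were called higher with LPS and 1.53% lower. *Hmox1*, the haem-degrading enzyme, was higher (84.5 ± 6.80 against 46.4 ± 0.856 FPKM, 0.86, adjusted p = 4.9e-05) and *Pparg*, a lipid-sensing nuclear receptor, lower (1.03 ± 0.174 against 1.60 ± 0.231, -0.60, adjusted p = 0.00867). The interaction called 5 positive and 1 negative, the last being *Olr1* at -1.11 (adjusted p = 0.01). Of all genes it called 1.91% positive and 1.02% negative.

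More pathway genes were called for LPS than for genotype, as was so for all genes. Of all 26740 genes in RAW264.7, 4899 (wild type) and 5899 (labelled knockout) were called for LPS, and 2287 (PBS) and 4635 (LPS) for the label. Of 26973 in BMDMs these counts were 10899 and 10488 for LPS, and 490 and 1285 for the knockout. In wild-type RAW264.7 cells 10 pathway genes were higher and 26 lower (11 and 19 with TMM scaling), beside 5.8% and 12.5% of all genes. In the labelled knockout 12 were higher and 27 lower, beside 7.45% and 14.6%. In BMDMs 11 were higher and 36 lower in each genotype, beside 7.94% and 32.5% of all genes in wild type and 8.02% and 30.9% in the knockout. With TMM scaling 21 and 26 pathway genes were called in wild type and 19 and 24 in the knockout. The median over the tested pathway genes was -0.58 in wild-type BMDMs and -0.54 in the knockout, beside -0.73 and -0.62 over all expressed genes. *Olr1*, a receptor for oxidised lipoprotein, rose most in each of these comparisons. It had 0 counts over the 3 wild-type RAW264.7 libraries with PBS and 207 with LPS, at least 70.2-fold higher when set against a floor of 3 counts over the group, and in the labelled knockout 2 and 251, a ratio of 159 with a 95% counting interval of 43.4 to 1320. In BMDMs it went from 0.0700 ± 0.0265 to 6.49 ± 0.348 FPKM in wild type (5.29, adjusted p = 6.44e-10) and from 0.157 ± 0.0321 to 4.53 ± 0.513 in the knockout (4.18, adjusted p = 3.57e-09). The largest falls were in *S1pr1* in RAW264.7, from 231 counts to 1 in wild type (a ratio of 227 with an interval of 40.4 to 9010) and from 10.5 to 0.0467 FPKM in the labelled knockout (-6.16, adjusted p = 1.79e-09). In BMDMs they were in *Slc40a1*, the iron exporter ferroportin, from 69.0 ± 4.66 to 1.14 ± 0.0321 FPKM in wild type (-5.79, adjusted p = 9.3e-12) and from 72.1 ± 2.52 to 1.28 ± 0.0929 in the knockout (-5.71, adjusted p = 7.23e-12).

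By list, LPS in wild-type BMDMs gave 2 other scavenger receptors called higher and 5 lower, 2 and 6 of the other receptors and bridging proteins for dying cells, 1 and 4 of the engulfment signalling genes, 4 and 4 of the find-me and do-not-eat-me signals, 1 and 7 of the shedding proteases and transcription factors, and 1 and 10 of the cargo genes. In the knockout these counts were 2 and 5, 3 and 7, 0 and 3, 4 and 4, 1 and 7, and 1 and 10. In wild-type RAW264.7 they were 2 and 4, 3 and 3, 0 and 3, 3 and 4, 1 and 5, and 1 and 7. Of all genes 7.94% were called higher and 32.5% lower in wild-type BMDMs, 8.02% and 30.9% in the knockout, and 5.8% and 12.5% in wild-type RAW264.7. The receptor-shedding proteases *Adam17* and *Adam10*, named here after their values were seen, were called higher and lower, respectively, in all 4 LPS comparisons, but *Adam10* was not called in BMDMs under median-ratio or TMM scaling.

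The genes whose pattern over the 12 libraries was most like that of each member were found from the root mean square difference of centred log2(FPKM + 0.1), as a description over genes at a mean of at least 1 FPKM. In BMDMs *Gas6* lay nearest to *Atp6v0a1* (0.035) and *Plxnc1* (0.042), *Cd36* to *Shtn1* (0.045) and *Ccl6* (0.058), and *Mfge8* to *Ctsh* (0.045) and *Apoe* (0.045). The distances were largest for *Marco*, with *Cx3cl1* (0.377) and *St3gal3* (0.419) nearest, where its own spread was 1.39. Distances were not scaled to a member's own spread, which was 0.230 for *Mertk* and 1.93 for *Cd163*. *Axl* lay nearest to *H2-K1* (0.077) and *Pik3ap1* (0.090), *Mertk* to *Wrn* (0.077) and *Wdfy2* (0.090), *Stab1* to *Igfbp4* (0.075) and *Lig1* (0.081), and *Cd163* to *Hrob* (0.123) and *Il6ra* (0.150). *Msr1* lay nearest to *Lims1* and *Slc30a1* (0.056 and 0.057), and *Scarb1* to *Cep120* and *Naa50* (0.050 and 0.051). In RAW264.7 *Cd36* lay nearest to *Gpr85* (0.190) and *Fam107b* (0.276), *Msr1* to *Slc12a4* (0.130) and *Zbtb32* (0.131), *Scarb1* to *Mcm6* (0.071) and *Pold1* (0.098), and *Mfge8* to *Lgals3* (0.166) and *Pmp22* (0.180).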

How the data were processed

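The authors deposited, for each cell type, 1 table of read counts and FPKM per gene, and the submitters' processing notes name mm10. The sources used here give neither the aligner and counter nor whether counting used strand. Deposited FPKM equalled count over gene length and library total within 1% for 99.9% (RAW264.7) and 99.5% (BMDM) of values over 50 counts. Gene positions in the tables do not match GRCm38, where 1448 of 52073 genes shared their start, so GRCm38.p6 coordinates come from RefSeq.

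Members, lists and rules were chosen with earlier results of these data known. The tool and both thresholds follow the study's methods, and the scale, filter and model were chosen here: limma 3.58.1 (R 4.3.3) fitted log2(FPKM + 0.1) as 4 group means per cell type, for genes above 0 FPKM in at least 1 library (8 residual degrees of freedom), with two-sided tests. All members were named, with the pathway gene that rose and fell most per comparison at 1 FPKM in either group, and the 2 genes nearest in pattern. Some results that this rule names are not reported here. Alternatives were pseudocounts of 0.01 and 1, a filter at 1 FPKM, no filter, an intensity trend, TPM, median-ratio scaling, edgeR 4.0.16 on the deposited counts (quasi-likelihood; TMM, median-ratio factors, no count filter), DESeq2 1.42.0, a fit of just the 2 groups compared, a replicate block, calls by adjusted p without the fold, and each library left out. The scripts were tested on simulated data. Depth limits low genes: 3 counts correspond to 0.042 to 0.0594 FPKM for *Mertk* in RAW264.7.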

Additional observations from a re-analysis of the deposited data

Results flagged for a closer look

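*Marco* in BMDMs was picked out because its knockout effect differed between treatments by the interaction test, by 1.90 on the log2 scale (adjusted p = 0.00462, limma). All 3 knockout libraries with LPS lay above all 3 wild-type libraries with LPS, and the genotypes overlapped with PBS.

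For 6 further values the 2 groups compared did not overlap in either cell type, and they differed in opposite directions. The share of all genes for which this held was not computed. Groups without overlap were common, as between the genotypes in PBS-treated BMDMs for 40.8% of the 10555 genes at a mean of at least 1 FPKM. None of these differences was tested, since the tables were normalised separately, and in RAW264.7 the groups are those labelled knockout. For *Cd36* the label or knockout effect in RAW264.7 exceeded that in BMDMs by 2.50 (log2) with PBS and by 1.67 with LPS, and its LPS effect in wild type by 1.68. For *Scarb1* the label effect in RAW264.7 minus the knockout effect in BMDMs was -0.26 with PBS and -0.59 with LPS, and for *Msr1* it was -0.48 with LPS. The BMDM value of *Msr1* changed sign under median-ratio scaling (-0.05), and that of *Scarb1* with LPS came to 0.01 with edgeR. That of *Scarb1* with PBS in RAW264.7 changed sign when scaled to TPM.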

How the results depend on the processing

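Of 1941 recomputed member values 1813 kept their side of the threshold (changes of sign with neither adjusted p under 0.05 included), 46 were no longer called, 64 were newly called and 18 changed sign with an adjusted p under 0.05 in either fit. The 18 came from scaling or count tools. In BMDMs *Mfge8* with LPS became, in wild type and knockout, 0.30 and 0.16 (median-ratio scaling), 0.33 and 0.20 (edgeR, TMM), 0.38 and 0.23 (edgeR, median-ratio factors), 0.27 and 0.14 (edgeR, no count filter) and 0.36 and 0.22 (DESeq2), and *Mertk* with LPS in the knockout became 0.55, 0.59, 0.62, 0.53 and 0.61. *Cd36* with LPS in labelled-knockout RAW264.7 became 0.20 (edgeR, median-ratio factors) and 0.19 (DESeq2), and *Msr1* with the knockout under LPS in BMDMs -0.059 (DESeq2). These scalings centre the genes, which FPKM does not.

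Of 210 recomputed counts of called members 177 stayed within 1.5 times. With the label under LPS in RAW264.7, 4 became 2 with pseudocounts of 0.01 or 1 and 2 to 3 with a library left out. For the RAW264.7 interaction 0 became 2 (edgeR, no count filter), 1 (DESeq2), 2 (adjusted p alone) and 0 to 2 with a library left out. In BMDMs, median-ratio scaling, the 3 edgeR fits and DESeq2 each gave 1 in place of 0 with the knockout under PBS, 2 in place of 1 under LPS and 2 in place of 1 for the interaction, and the adjusted p alone gave 4, 5 and 5 (4.14%, 17.8% and 6.53% of all genes). A pseudocount of 0.01 gave 2 under LPS, and leaving out a library gave 0 to 1 under PBS and 1 to 2 under LPS. Among pathway counts 128 of 138 stayed within 1.5 times. For the RAW264.7 interaction, 8 became 5 with the replicate block.

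Deviations from group means had correlations of -0.04 to 0.08 in RAW264.7 and -0.06 to 0.07 in BMDMs between same-numbered libraries. Between differently numbered ones they were -0.10 to 0.08 and -0.06 to 0.10. Whether equal numbers mark a shared animal or culture is not stated. These correlations cannot decide it, since a shared origin need not show in them. The replicate block gave the same member counts (5, 4, 5, 4 and 0 in RAW264.7, and 0, 1, 7, 8 and 1 in BMDMs). Depth limits *Gas6*, *Marco*, *Cd163*, *Stab1* and *Mertk* in RAW264.7.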
